A study of Mus musculus with 4 samples.

Results

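The genes that encode the RNA polymerases and the general transcription machinery were examined for peaks of HA-tagged Fbxl10, a histone demethylase also called Kdm2b. Members were the protein-coding genes of the RefSeq annotation whose symbols begin with Polr1 to Polr3, Gtf2 or Gtf3, Taf followed by a digit, or Med followed by a digit. They numbered 105 of 21887 nuclear protein-coding genes. There were 28 Polr genes (subunits of RNA polymerases I, II and III) and 23 Gtf genes (mostly general transcription factors). The rest were 24 Taf genes (mostly factors associated with the TATA-binding protein) and 30 Med genes (Mediator subunits). Genes were chosen by symbol, and the set as a whole was selected with the positions and scores of its peaks in both lists in view. Their peak counts are therefore a description, and no test was made on them.

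Mouse embryonic fibroblasts (MEFs) of a gain-of-function model for HA-tagged Fbxl10 were compared with and without doxycycline, which switches the tagged protein on and was given at 1 µg/ml for 48 hours. Both groups carried the construct, and the non-induced cells serve as the control. An HA antibody was used to precipitate chromatin for sequencing (ChIP-seq), and 1 peak list for each condition was analysed, with 5497 induced and 10532 non-induced peaks. Input libraries make up the rest of the 4 samples. The sources used here do not name the promoter or cell type that drives the construct, and the protocol's 3 independent samples could not be matched to the 2 lists. There was therefore no replicate check, and every difference is one between 2 lists.

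Every nuclear transcript in a cell is made by one of these polymerases. RNA polymerase I makes the large ribosomal RNA precursor, RNA polymerase II makes messenger RNA, and RNA polymerase III makes transfer RNA and other short RNAs. Most Gtf and Taf proteins help place the polymerase at the start of a gene, and Mediator links it to transcription factors bound elsewhere. Fbxl10 removes methyl groups from histones, binds unmethylated CpG dinucleotides through a CXXC zinc finger and brings a variant Polycomb complex to CpG-rich promoters. CpG content of the promoters is therefore shown first.

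Promoter sequences came from RefSeq (GRCm38.p6, the same coordinates as mm10) and were matched by gene identifier for 91 of the 105 members. The 6 shown belong to the member with the highest-scoring induced peak near its start in each of the 4 groups, and to the next highest members. Each is the stretch of up to 250 bases before the annotated start, 5′ to 3′ on the strand of the gene, and it stops where a neighbouring gene begins. Capitals mark CpG dinucleotides.
Polr2e: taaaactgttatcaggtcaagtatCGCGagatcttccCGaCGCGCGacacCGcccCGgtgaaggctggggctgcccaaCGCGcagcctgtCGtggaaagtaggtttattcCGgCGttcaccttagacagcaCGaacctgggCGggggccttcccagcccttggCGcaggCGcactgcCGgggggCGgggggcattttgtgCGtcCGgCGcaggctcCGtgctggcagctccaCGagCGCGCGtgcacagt
Polr3g: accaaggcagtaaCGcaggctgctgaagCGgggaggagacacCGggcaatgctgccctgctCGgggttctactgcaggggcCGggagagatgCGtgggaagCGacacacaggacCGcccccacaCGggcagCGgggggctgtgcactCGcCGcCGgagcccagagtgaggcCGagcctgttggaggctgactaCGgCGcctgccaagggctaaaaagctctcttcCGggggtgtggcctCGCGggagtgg
Polr1c: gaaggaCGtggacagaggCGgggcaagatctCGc
Gtf3c3: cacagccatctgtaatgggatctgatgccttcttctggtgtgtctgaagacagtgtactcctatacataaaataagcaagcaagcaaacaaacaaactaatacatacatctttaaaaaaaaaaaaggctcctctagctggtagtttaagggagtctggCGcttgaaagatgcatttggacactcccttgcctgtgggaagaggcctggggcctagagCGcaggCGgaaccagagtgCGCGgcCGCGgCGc
Taf15: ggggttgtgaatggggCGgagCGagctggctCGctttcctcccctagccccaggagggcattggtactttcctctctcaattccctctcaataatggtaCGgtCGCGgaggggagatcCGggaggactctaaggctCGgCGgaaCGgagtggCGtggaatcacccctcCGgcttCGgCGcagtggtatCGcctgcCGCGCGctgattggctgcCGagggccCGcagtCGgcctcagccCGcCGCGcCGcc
Med22: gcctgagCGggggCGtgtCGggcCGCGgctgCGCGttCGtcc

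The stretch of Polr2e (chr10:80039660-80039909, minus strand) held 27 CpG in 250 bases, and all of it lay under an induced peak. That of Polr3g (chr13:81711014-81711263, minus strand) held 19, also wholly under a peak. Gtf3c3 (chr1:54439027-54439276, minus strand) was poorer, with 8 CpG in 250 bases, and it too was wholly covered. Taf15 (chr11:83472858-83473107, plus strand) held 25 CpG, and its highest peak began inside the gene while a lower one crossed the start. Polr1c (chr17:46248046-46248079, minus strand) and Med22 (chr2:26910643-26910684, minus strand) have only 34 and 42 bases before the next gene, Yipf3 and Rpl7a, begins on the opposite strand. These short stretches held 3 and 8 CpG and were covered by peaks that reached into both genes.

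Induced peaks were found near 25 of the 105 members, most often near polymerase genes and least often near Mediator genes. A peak was counted when its nearest edge lay within 1 kb of either end of the gene. The 25 members make 23.8% (exact 95% interval 16.0 to 33.1, counting error only), where 13.4% of all protein-coding genes had such a peak. In the non-induced list 1 member, Taf3, had a peak (0.952%), where 1.59% of all genes did. By group, 10 of 28 Polr genes (35.7%, 18.6 to 55.9), 6 of 23 Gtf genes (26.1%, 10.2 to 48.4), 5 of 24 Taf genes (20.8%, 7.13 to 42.2) and 4 of 30 Med genes (13.3%, 3.76 to 30.7) had an induced peak. The intervals describe counting error and are no test against the genome. The lead of the Polr genes, but not the last place of the Med genes, rests on peaks that also lie within 1 kb of another coding gene. Without those, a setting added once these values were known, 3 of 28 Polr (10.7%), 3 of 23 Gtf (13.0%), 4 of 24 Taf (16.7%) and 2 of 30 Med genes (6.67%) were marked, against 9.02% of all genes.

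**Figure D1:**
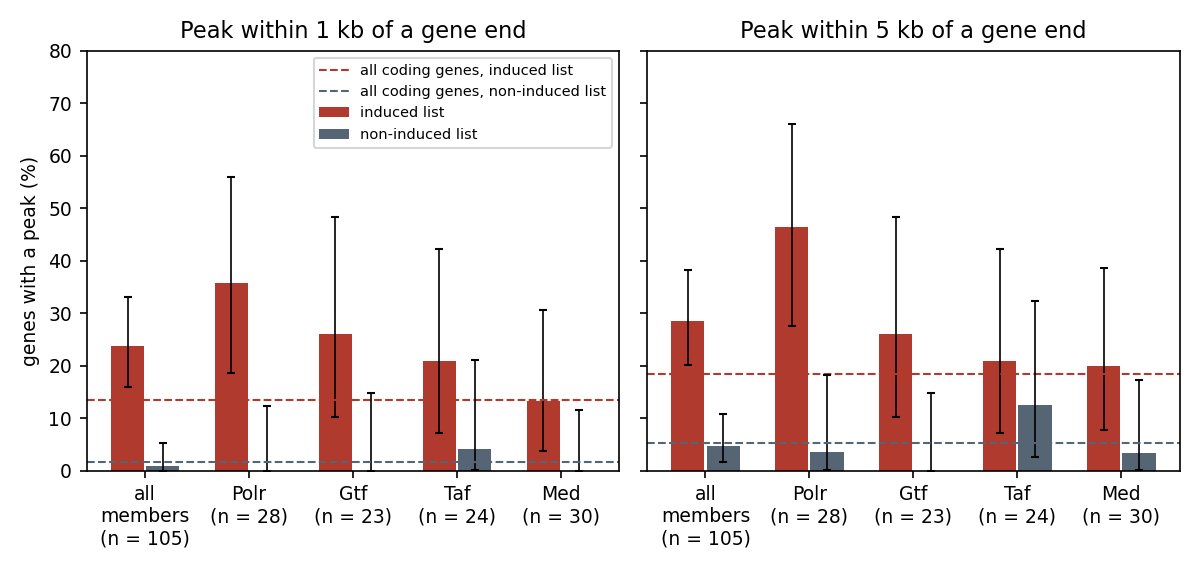
Share of genes with a peak within 1 kb (left) or 5 kb (right) of either gene end, in percent, for all members and each symbol group; bars give the share, error bars the exact 95% binomial interval, and dashed lines the share of all protein-coding genes in each list. The induced bar of the Polr genes is the highest in both panels (35.7% and 46.4%), and the non-induced bars lie near or below their dashed line except for the Taf genes.

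Within 5 kb the count rose to 30 members in the induced list (28.6%, 20.2 to 38.2, against 18.4% of all genes) and 5 in the non-induced list (4.76%, 1.56 to 10.8, against 5.36%). The wider window added 3 Polr genes and 2 Med genes to the induced count and no Gtf or Taf gene. Members with induced peaks just inside 1 kb were Polr1b (905 bp), Taf11 (932 bp) and Med13l (957 bp), and the next beyond it were Med12l (1910 bp) and Med26 (2257 bp). Just inside 5 kb lay Polr2b (4825 bp, induced) and Taf12 (4776 bp, non-induced), and just outside it Gtf2ird2 (5594 bp, induced) and Med20 (6207 bp, non-induced). For the 75 members beyond 5 kb the nearest induced peak lay a median of 103 kb away, against 142 kb over the 17865 such genes of the genome.

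The peaks near members had scores like those near other genes. The score is the authors' own value for each peak and begins at 50 in both lists. The highest score within 1 kb had a median of 83.3 over the 25 members (51.0 to 188) and of 80.2 over the 2930 genes marked in the induced list. Scores of at least 100 were found at 6 members (5.71%), against 4.25% of all genes: Med9, Polr2e, Polr3g, Polr1c, Taf15 and Taf13. Median scores by group were 89.3 for Polr, 83.3 for Taf, 72.2 for Gtf and 67.9 for Med. Peak width had a median of 825 bp over the 26 induced peaks at members and 864 bp over all 2591 induced peaks at gene ends. None of the 27 peaks at members in either list overlapped a peak of the other list. Of all peaks at gene ends, 48 of 2591 induced (1.85%) and 40 of 332 non-induced ones (12%) did.

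**Figure D2:**
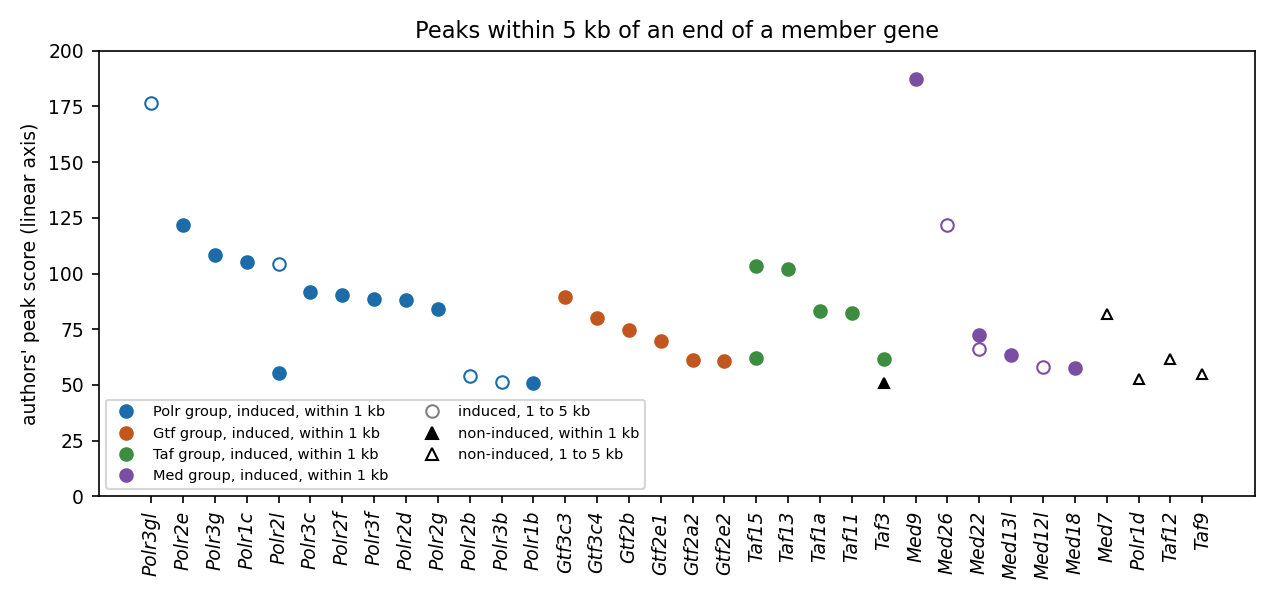
Authors' peak score (linear axis) of every peak within 5 kb of an end of a member; filled circles are induced peaks within 1 kb, coloured by group, open circles induced peaks at 1 to 5 kb, and triangles non-induced peaks. Most filled circles lie between 50 and 125, Med9 stands apart at 188, and the filled triangle is the peak of Taf3 at 51.0.

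Of the 10 marked polymerase genes, 3 encode subunits common to all RNA polymerases, 1 a subunit of RNA polymerases I and III, 1 of RNA polymerase I, 2 of RNA polymerase II and 3 of RNA polymerase III. Of the 5 genes for subunits common to all RNA polymerases, 3 had an induced peak. Polr2e on chromosome 10 (80035953 to 80039659) had the highest score of the group at 122, and its peak covered the start. Polr2f had a peak of 90.3 across its start. Polr2l had one of 55.4 that ended 67 bp before its start. A higher peak of 104 lay 3924 bp from the other end of Polr2l, within 1 kb of Cracr2b and Cd151. Polr2h and Polr2k, the others of this kind, had no peak within 5 kb. Of the subunits used by RNA polymerases I and III, Polr1c had a peak of 105 across its start. Polr1d had no induced peak, and a non-induced peak of 52.5 lay 3155 bp beyond its end.

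RNA polymerase II has a stalk of a pair of subunits, encoded by Polr2d and Polr2g, that binds the emerging RNA. Both genes had an induced peak across a gene end, with scores of 87.9 and 84.3. They were the only marked genes among the 8 that encode subunits or a partner of RNA polymerase II alone. Polr2a, the gene of the largest catalytic subunit, had no peak within 5 kb in either list. Polr2b, its partner in the catalytic core, had a peak of 54.1 at 4825 bp beyond its end.

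The genes for the RNA polymerase III trimer that helps open the promoter were all marked, a grouping made after the values were seen. Polr3c had a peak of 91.6 that ended 284 bp before its start. Polr3f had one of 88.4 across its start, and Polr3g one of 108 across its start. Each of these peaks also lay within 1 kb of another coding gene (Rnf115, Dzank1 and Mblac2), and the Polr3c peak lay inside Rnf115. Without such shared peaks none of the trimer genes was marked. Polr3gl encodes an alternative form of the Polr3g protein. A peak of 177, the highest near any Polr gene, lay 3250 bp before the start of Polr3gl, within 1 kb of Gm52628, which is not protein-coding. Polr3b, the gene of a catalytic core subunit, had a peak of 51.3 inside it, 3515 bp from the start. The largest subunit gene Polr3a and Polr3d, Polr3e and Polr3k had none within 5 kb, so 3 of the 10 genes for RNA polymerase III alone were marked at 1 kb and 5 at 5 kb. For RNA polymerase I, Polr1b had a weak peak (51.0) 905 bp beyond its far end, and Polr1a and Polr1e had none within 5 kb.

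The 6 marked Gtf genes were 1 of 3 of TFIIA, the gene of TFIIB, both of TFIIE and 2 of 6 of TFIIIC, a factor of RNA polymerase III. Gtf2b encodes TFIIB, which bridges promoter and polymerase, and had a peak of 74.6 across its start. Both genes of TFIIE, which recruits the helicase factor TFIIH, were marked: Gtf2e1 with 69.9 across its start and Gtf2e2 with 60.6 at 267 bp from a gene end. Gtf2a2, a subunit of the TBP-stabilising factor TFIIA, had a peak of 61.2 across its start. Of the 6 TFIIIC genes, Gtf3c3 (89.6) and Gtf3c4 (80.2) had peaks across their starts. None of these 6 scores reached 100.

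No gene of TFIIF (Gtf2f1, Gtf2f2), of the TFIIH core (Gtf2h1 to Gtf2h5, where 0 of 5 allows up to 60%), of the TFII-I family (Gtf2i, Gtf2ird1, Gtf2ird2) or of TFIIIA (Gtf3a) had an induced peak within 5 kb. Gtf2a1, Gtf2a1l and the other TFIIIC genes had none either. No Gtf gene had a non-induced peak within 5 kb, which allows up to 13% of 23.

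Of the Taf genes, Taf15 and Taf13 had the highest peaks. Taf15 encodes an RNA-binding protein of the FET family, and it was the only member with 2 induced peaks within 1 kb, one across the start (62.2) and one from 323 bp to 1094 bp inside the gene (104). Taf13 and Taf11 encode partners in the TFIID complex, which binds core promoters. Taf13 had a peak of 102 across its start, and Taf11 one of 82.4 inside the gene, 932 bp from the start. Taf1a, a subunit of the RNA polymerase I factor SL1, had a peak of 83.3 across its start, and the other 3 SL1 genes had none.

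Taf3, a TFIID subunit that reads a histone methylation mark of active promoters, was the only member with peaks of both lists within 1 kb. They lay at opposite ends of the gene. The induced peak (61.5) had its midpoint 1114 bp inside the start, and the non-induced peak (51.0) crossed the far end, with its midpoint 133820 bp from the start. Among all genes 74 (0.338%) had peaks of both lists within 1 kb. Non-induced peaks also lay near Taf9 (54.7, at 2437 bp before the start) and Taf12 (61.6, inside the gene and 4776 bp from its far end). Thus 3 of 24 Taf genes had a non-induced peak within 5 kb (12.5%, interval 2.66 to 32.4), against 5.36% of all genes.

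The Mediator genes were marked at about the rate of the genome. Med22 and Med18, both of the head module that touches the polymerase, had peaks across their starts with scores of 72.5 and 57.4. Med13l, of the kinase module, had a peak of 63.4 inside the gene, 957 bp from the start. Med12l, of the same module, had one of 58.0 at 1910 bp inside. Med9 on chromosome 11 (59948214 to 59963306) had the highest score of all members, 188, but the peak began 2 bp beyond its far end and overlapped Rasd1, which encodes a Ras-related protein. Its start lay 15094 bp from that peak. Med26, which links Mediator to elongation factors, had a peak of 122 at 2257 bp beyond its far end, within 1 kb of Slc35e1. Med7 had the highest non-induced score near a member, 82.0, at 3607 bp before its start. Without Med9, whose peak lies at the other gene, 3 Med genes would remain.

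Where a strand was known, induced peaks lay at starts and hardly ever at far ends. Of 91 members with a strand, 20 (22.0%, 14.0 to 31.9) had an induced peak within 1 kb of the start and 2 (2.20%, 0.267 to 7.71) within 1 kb of the other end, Polr1b and Med9. Over all 17492 genes with a strand the shares were 12.7% and 1.62%. In the non-induced list 0 of 91 members had a peak within 1 kb of the start, which allows up to 3.3%, against 0.863% of all genes. At 15 members (16.5%) a peak covered the start itself, against 7.14% of all genes. The midpoint of the highest peak near the start lay a median of 154 bp downstream over these 20 members and 168 bp over 2217 genes. For 13 of the 20 members (65%) it was downstream, against 61.8% of all. The earliest midpoint was that of Polr3c at -704 bp, and the latest that of Taf11 at 1513 bp.

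**Figure D3:**
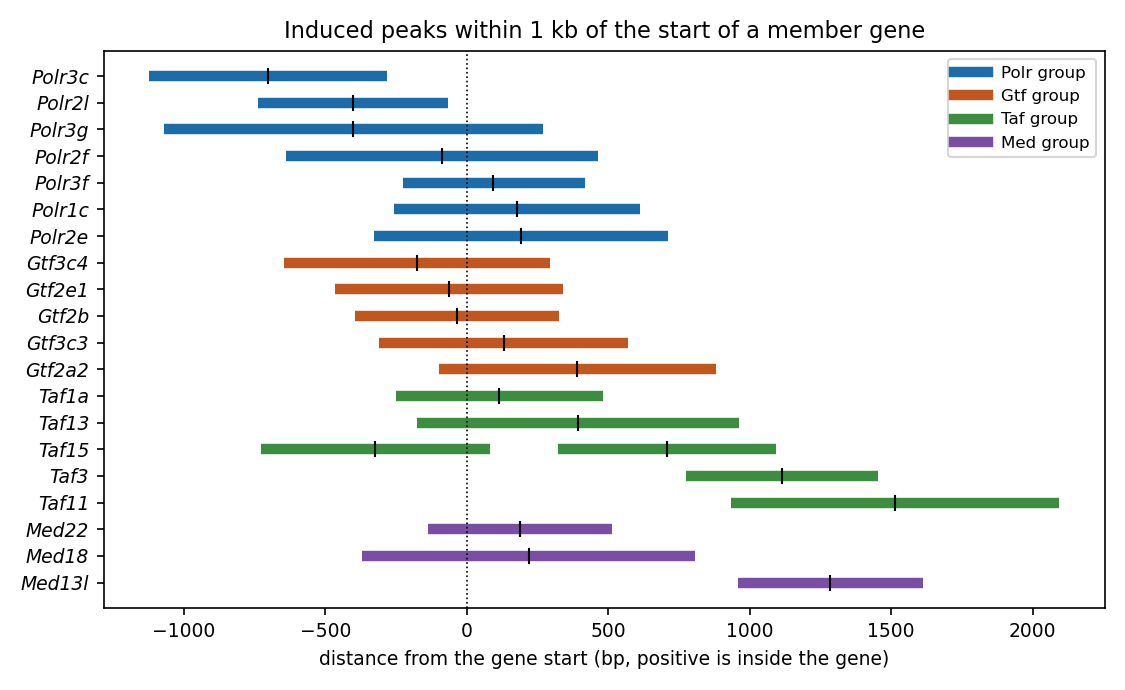
Extent of induced peaks within 1 kb of the start of a member, in bp from the start with positive values inside the gene; bars are peaks coloured by group and black ticks are midpoints. The bars of 15 members cross the dotted line at the start, those of Polr3c and Polr2l end before it, and those of Taf3, Taf11 and Med13l begin inside the gene.

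Many marked members share their promoter with another gene. Of the 26 induced peaks at members 13 (50%) lay within 1 kb of another protein-coding gene, against 19.6% of all 2591 induced peaks at gene ends. A gene is likelier to be reached by a peak that serves several genes, so the share was also taken over genes: 13 of the 25 marked members (52.0%, 31.3 to 72.2) had no other peak, against 32.6% of all marked genes. Among Polr genes it was 7 of 10, among Gtf genes 3 of 6, among Med genes 2 of 4 and among Taf genes 1 of 5. With such peaks left out, 12 members (11.4%) were marked against 9.02% of all genes. The Polr count thus rests largely on peaks that cannot be assigned to the Polr gene rather than to its neighbour.

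In 10 of these 13 cases the 2 genes stood head to head, meaning on opposite strands with starts within 1 kb. Their starts were 35 bp apart for Polr1c and Yipf3, 39 bp for Taf11 and Anks1, 43 bp for Med22 and Rpl7a, which encodes a ribosomal protein, and 46 bp for Gtf3c4 and the helicase gene Ddx31. They were 69 bp apart for Gtf2e1 and Rabl3, 74 bp for Polr2f and 1700088E04Rik, 83 bp for Polr2l and Tspan4, and 99 bp for Polr3c and Rnf115. Polr3f and Dzank1 were 238 bp apart and Polr3g and Mblac2 404 bp. The other 3 peaks lay across the start of Gtf2a2, 789 bp from the far end of Bnip2, at Chchd5 beyond Polr1b, and at Rasd1 beyond Med9.

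Head-to-head starts were common among the members: 26 of 91 (28.6%), against 10.3% of all 17492 genes with a strand, and 10 of 22 Polr genes (45.5%). Of the 26 members 10 (38.5%, 20.2 to 59.4) had an induced peak within 1 kb of the start, and of the other 65 members 10 (15.4%, 7.63 to 26.5). Over all genes the shares were 30.3% and 10.7%. Polr genes with a strand were split most, with 6 of 10 head-to-head genes marked and 1 of 12 others, Polr2e. Polr2d and Polr2g have no strand here and are not counted. Both had an induced peak across a gene end, with no other coding gene within 1 kb of it. Head-to-head members without a peak at the start included Polr1a with Ptcd3, Polr2h with Clcn2, Gtf2h1 with Hps5 and Taf5l with Urb2. Over all genes, head-to-head promoters were also richer in CpG, with a median of 23 in 300 bases against 11 in other genes. Among members the medians were closer, at 27.5 and 22. Of the 4 groups only Med went the other way, with 14 and 22.

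CpG was counted in a window of 300 bases, from 250 before to 50 after the start. Members held a median of 23 CpG (4 to 61), against 13 over 17492 protein-coding genes. The 22 members with an induced peak had a median of 26.5 (13 to 61). The 69 without one had a median of 22 (4 to 45), so the ranges overlapped widely. The 22 include Polr1b and Med9, whose peaks lie at the far end of the gene. For the 20 members with a peak within 1 kb of the start the median was 28 (13 to 61). Over all genes the medians were 23 with and 11 without an induced peak. Marked Polr genes had a median of 30 and unmarked ones 18, while Gtf genes had 23 and 24. No member with fewer than 13 CpG was marked, and Med13l, with 61, had the most. As the ratio of observed to expected CpG, marked and unmarked members did not separate, with medians of 0.852 and 0.841.

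**Figure D4:**
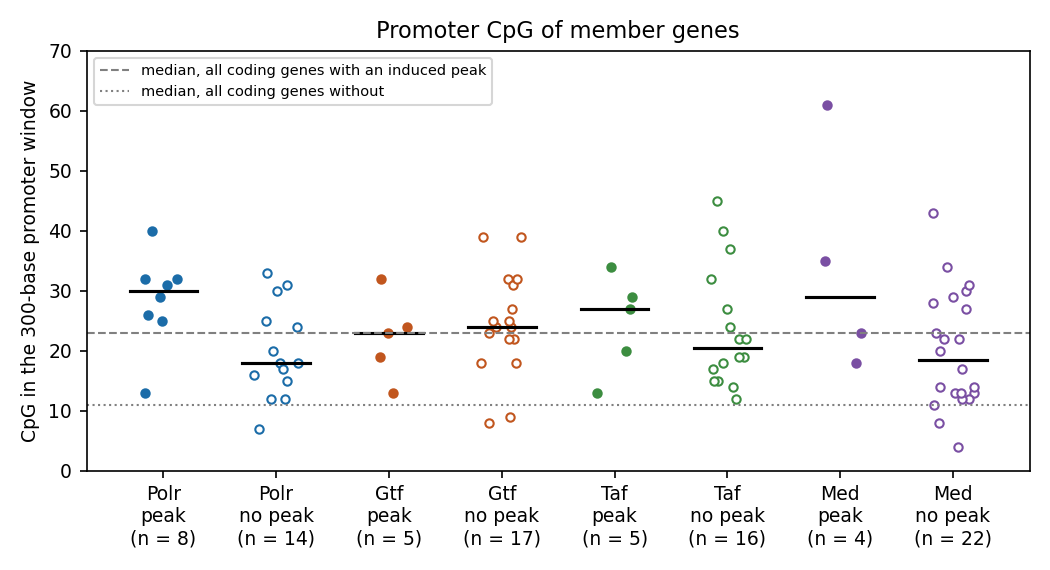
Number of CpG in the 300-base promoter window of each member, by group and by whether an induced peak lay within 1 kb of a gene end; points are genes, short black lines are medians, and dashed and dotted lines are the medians of all protein-coding genes with (23) and without (11) an induced peak. Most members, marked or not, lie above the dotted line, and the marked and unmarked Polr genes differ most in median (30 and 18).

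Within classes of CpG content the members were nearer to other genes. With 10 to 19 CpG, 5 of 31 members (16.1%, 5.45 to 33.7) and 16.8% of all genes were marked. With 20 to 29 CpG it was 9 of 31 members (29%, 14.2 to 48.0) and 24.0% of all, and with 30 or more 8 of 24 members (33.3%, 15.6 to 55.3) and 24.2% of all. Below 10 CpG none of 5 members was marked, where all genes had 1.73% (0 to 4 CpG) and 5.99% (5 to 9 CpG). At the class shares of all genes, 18.7 of the 91 members would be marked, and 22 were. By group the same reckoning gave 4.54 for Polr (8 found), 4.64 for Gtf (5 found), 4.41 for Taf (5 found) and 5.13 for Med (4 found).

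Other parts of the transcription machinery were marked at a similar rate. A list of 60 genes that the symbol rule does not take held 18 with an induced peak within 1 kb (30%, 18.8 to 43.2) and 0 with a non-induced peak, against 13.4% and 1.59% of all genes. Rrn3, which brings RNA polymerase I to ribosomal DNA, had the highest score, 140. Ccnt1 (106) and Ccnt2 (97.09) encode cyclins of the elongation kinase P-TEFb and Hexim1 (97.20) its inhibitor, while Cdk9, its kinase subunit, and Larp7 had no peak within 5 kb. Elongation factor genes followed with Supt5 (98.8), the FACT subunit gene Ssrp1 (97.00), Ell2 (85.2), Tcea2 (75.6), Ctr9 (64.7), Rtf1 (54.8), Tcea1 (50.9) and Nelfa (50.3). The Mediator kinase gene Cdk8 had 69.97, and Mnat1 of the TFIIH kinase had 58.6. Polrmt, the mitochondrial RNA polymerase, had 62.3, Snapc1 of the snRNA factor had 61.8 and the RNA polymerase I gene Cd3eap had 55.0. Tbp itself and Cdk7 had no peak within 5 kb.

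Deep inside genes, over 5 kb from both ends, 2 of 105 members had an induced peak (1.90%, interval 0.232 to 6.71, against 3.74% of all genes), Polr1a and Gtf2ird2. Non-induced peaks lay there in 8 members (7.62%, interval 3.35 to 14.5, against 8.12% of all genes). Med13, of the Mediator kinase module, had 3 of them and its module partner Med12l had 2, while Gtf2a1l, Gtf2e1, Gtf2e2, Gtf3c3, Taf15 and Taf4b had 1 each. Of these, Gtf2e1, Gtf2e2, Gtf3c3 and Taf15 also had an induced peak within 1 kb of a gene end. Such counts depend on gene length, which was not taken into account.

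All 5 members on chromosome X (Med12, Med14, Taf1, Taf9b and Taf7l) lacked an induced peak within 5 kb, as did all but 2 of the 966 genes of that chromosome (0.207% with a peak). Within 1 kb 0 of the 966 had one. On autosomes 25 of 100 members (25.0%) were marked, against 14.2% of genes. The non-induced list was sparse outside the autosomes too. Of the 348 genes with a non-induced peak within 1 kb, 346 were autosomal, where autosomes hold 20665 of the 21887 genes. The 5 members on chromosome X had no non-induced peak within 5 kb either. No peak of either list lay within 5 kb of 71 members, or 67.6%, against 77.6% of all genes. They were 14 Polr, 17 Gtf, 17 Taf and 23 Med genes. A peak list does not measure expression. Of 5 fibroblast marker genes, Vim and Thy1 had an induced peak, and so had 6 of 9 markers of neurons, blood, endothelium and epithelium, so the lists do not check the cell type.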

How the data were processed

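HA ChIP-seq peak lists of induced and non-induced MEFs were analysed, 1 per condition. Per the submitters' processing notes reads were aligned with Bowtie2 to mm10, and per the peak names in the files peaks were called with MACS. Its version and threshold, any pooling and the use of input are not stated there. The deposited files hold a position and the authors' score for each peak, with no stated formula. Scores rank peaks within a list, and whether both lists share a scale was not tested. Read depth is unknown. Lists were matched to samples by the marks for with and without doxycycline in list names and titles.

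Genes came from a RefSeq table of GRCm38.p6, without the 13 mitochondrial coding genes. Start and strand came from RefSeq promoters, for 17492 genes. Where a gene has several annotated starts, the promoter nearest the gene model's start was used. BED starts were converted to positions counted from 1. A peak was assigned by the distance of its nearest edge to a gene end, and intervals are exact Clopper-Pearson intervals at 95%. For a share of 0 the limit is that of 3 counts. No test was run: there is 1 list per condition, and the members and lists were chosen with earlier results of these data known. Motifs were searched on both strands of the 300-base window. Text names every member with a peak within 5 kb and every gene of the 60-gene list with one within 1 kb, except for an item that is not reported here. Genes counted at 1 kb differed from bedtools 2.31.1 by 0 in both lists, and 21 of 21 peaks placed at known distances were recovered. Tools were pandas 2.3.3, numpy 2.4.6, SciPy 1.17.1 and matplotlib 3.10.9 under Python 3.11.15.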

Additional observations from a re-analysis of the deposited data

How the results depend on the processing

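Of 72 recomputed values 50 stayed within 1.5 times the main value and 22 moved further. Part of the 50 could not have moved and says nothing about stability. Lists of equal size leave the induced list, the shorter one, as it was. No peak within 5 kb of a member was in both lists, and no member on chromosome X had a peak that near. Leaving out peaks in both lists, or chromosome X, therefore kept every member count. The 22 include the promoter CpG difference, which was recomputed in another unit and is not comparable. They also include counts at far ends alone, which can only be part of those at either end. The 25 members with an induced peak within 1 kb became 2 at far gene ends alone (2.20%, against 1.62% of all genes). Without peaks of 2 or more coding genes they became 12 (11.4%, against 9.02%). The share of all genes was 13.4% in the main setting, so it fell in both settings too. In these settings the 10 Polr genes became 1 and 3 (4.55% and 10.7%). The 6 Gtf genes became 0 and 3 (0% and 13.0%), and the 4 Med genes 1 and 2 (3.85% and 6.67%). The 5 Taf genes became 0 at far ends alone. They became 3 (12.5%) with a window of 500 bp or the distance from the peak midpoint, against 11.3% and 11.6% of all genes. The distance from the midpoint left 2 Med genes (6.67%, against 11.6%). The 30 members with an induced peak within 5 kb became 9 at far ends alone (9.89%, against 6.07% of all genes). The 1 member with a non-induced peak within 1 kb became 0 at gene starts alone, at scores from the joint median of 61.6 upward and with lists of equal size. Of all genes 0.863%, 0.845% and 0.914% then had such a peak. The 5 with a non-induced peak within 5 kb became 2 in each of these settings (2.20%, 1.90% and 1.90%). The shares of all genes there were 3.32%, 2.54% and 2.87%. The 5 became 3 at far ends alone (3.30%, against 2.86%) and 1 within 2 kb (0.952%, against 2.63%). The difference in median promoter CpG between marked and unmarked members was 4.5 as a number in 300 bases and 0.011 as a ratio of observed to expected. Counts at starts or far ends alone cover only the 91 members with a strand. No paired analysis was possible because there is 1 peak list per condition. Each count rests on 1 list of unknown depth, so a gene without a peak was not detected and may still be bound.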

Other observations

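Some short motifs were more frequent in promoters of members than in those of all 17492 genes, counted in 300 bases on both strands. CCGGAAG, a core of the ETS family of activators, was in 32 of 91 member promoters (35.2%, against 11.9% of all). It was in 9 of 22 marked and 23 of 69 unmarked members. The E-box CACGTG was in 18 (19.8%, against 7.91%), of which 1 was marked, Polr3c. The GC box GGGCGG was in 57 (62.6%, against 46.3%), in 17 of 22 marked and 40 of 69 unmarked members. AAGATGG, a core of YY1 sites, was in 11 (12.1%, against 6.35%), and TATAAA in 11 (12.1%, against 13.3%). CCAAT was in 29 (31.9%, against 39.2%), and the palindromic NRF1 motif in 0 (against 1.33%). These are matches of letters and not binding sites, CpG-rich promoters favour motifs that hold CpG, and the marked and unmarked counts were not tested against each other.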
